A study of Homo sapiens with 8 samples.

Results

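The 9 genes described here make, store, recapture and break down catecholamines or form the core of the granules that hold them: TH, DDC, DBH, SLC18A1, SLC18A2, SLC6A2, MAOA, CHGA and CHGB. They were picked by name from a count table of 56303 genes, for their roles in this system and with earlier results of these data known, and all 9 had enough reads to be tested in every comparison. The table comes from MeRIP-seq of SK-N-BE(2), an established human neuroblastoma cell line, in which pieces of poly(A) RNA were pulled down with an antibody against N6-methyladenosine (m6A) to give an IP library, and 10% of the pieces were kept as the input library. The cells had been infected with lentivirus that expressed either a control hairpin (sh-NC) or one directed at METTL14 (shMETTL14), a subunit of the m6A writer complex, and selected with puromycin. Each arm had 2 cultures, and each culture gave 1 IP and 1 input library, so that there were 8 libraries. The labels number the shMETTL14 cultures without saying which hairpin each carried, and nothing says that cultures of an arm were grown from separate infections, so the p-values measure only the spread between these samples.

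Sympathetic neurons and the neuroblastoma cells that resemble them make noradrenaline from tyrosine. Tyrosine hydroxylase (TH) carries out the slow, regulated step to L-DOPA, aromatic L-amino acid decarboxylase (DDC) turns L-DOPA into dopamine, and dopamine beta-hydroxylase (DBH) turns dopamine into noradrenaline inside vesicles. The vesicular monoamine transporters VMAT1 (SLC18A1) and VMAT2 (SLC18A2) fill the vesicles, the noradrenaline transporter (SLC6A2) takes the released amine back up, and monoamine oxidase A (MAOA) oxidizes it in the cytoplasm. Chromogranins A and B (CHGA, CHGB) are acidic proteins that pack the dense core of the same granules. Catecholamine products are used to follow neuroblastoma in the clinic.

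Libraries held between 32027379 and 47205265 counts, and the 9 genes took 0.0976% and 0.0987% of the counts of the sh-NC inputs and 0.125% and 0.127% of those of the shMETTL14 inputs. METTL14, the shRNA target, stood at 49.5 and 48.8 CPM (library-scaled counts, in which edgeR's TMM factors correct each library's size) in the inputs of sh-NC and at 13.7 and 14.7 CPM in the inputs of shMETTL14, a log2 change of -1.79 ± 0.0663 (SE) with an edgeR adjusted p of 1.28e-15. Markers of adrenergic neuroblastoma (10 genes) summed to between 5790 and 6030 CPM in the inputs of sh-NC and to between 6100 and 6190 CPM in the inputs of shMETTL14, most of it MYCN. MYCN was not called (log2 -0.01, edgeR adjusted p = 0.878). Of the 10 genes, 6 were called higher by edgeR and none lower, beside 11.7% and 12.3% of all genes tested. Apart from MYCN, these markers are the sympathetic transcription factors described further on. Schwann and neural crest markers (5 genes) went from between 5.45 and 6.04 CPM in sh-NC to between 5.14 and 5.33 CPM in shMETTL14. Endothelial markers (3 genes) went from between 1.97 and 2.49 to between 1.44 and 1.63 CPM. Epithelial markers (4 genes) went from between 8.21 and 8.31 to between 6.92 and 7.27 CPM. Among these genes only KRT18, an epithelial marker with at most 38 counts in an input, was called, as lower (log2 -1.41, edgeR adjusted p = 0.0242). Immune markers (4 genes) went from between 16.7 and 20.3 CPM in sh-NC to between 13 and 14.6 CPM in shMETTL14, with CD68 the main part, the other 3 under 1 CPM and CD3E at 0 in both inputs of sh-NC. Mesenchymal markers (6 genes) summed to 564 and 565 CPM in the inputs of sh-NC and to 510 and 522 CPM in the inputs of shMETTL14, with COL1A1, FN1 and CD44 called lower, COL3A1 and PRRX1 called higher and YAP1 not called by edgeR; the part of these differences in the results below was not tested. In bulk RNA, fewer cells that express a gene and less RNA per cell cannot be told apart.

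In GRCh38, the build named in the submitters' processing notes, TH lies at chr11:2163929-2171877 on the minus strand, DDC at chr7:50458436-50565457 (minus), DBH at chr9:133636360-133659344 (plus) and SLC18A2 at chr10:117241093-117279430 (plus). SLC6A2 lies at chr16:55655604-55706192 (plus), MAOA at chrX:43654907-43746824 (plus), CHGA at chr14:92923080-92935293 (plus) and CHGB at chr20:5911430-5925361 (plus). Counts cover all exons of a gene, so that a place within the transcript cannot be read from them. No exonic base of TH, SLC18A1, MAOA, CHGA or CHGB is shared with another listed gene, whereas SLC18A2 shares 56.39% of its exonic bases, SLC6A2 17.88%, DBH 4.27% and DDC 3.64%, which makes these 4 values less certain.

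RefSeq promoter windows of GRCh38.p14, reaching from 250 bases before to 50 bases after a start site, were at hand for 5 of the 9 genes (DDC, DBH, SLC18A2, MAOA and CHGA). The cAMP response element, which the factor CREB binds, reads TGACGTCA, the same on both strands, and 1.85% of all 35116 windows hold it. Among the 5 genes it was found in CHGA, starting 54 bases before the RefSeq start, and in SLC18A2, starting 48 bases before it. The exons counted for CHGA begin at chr14:92923080, so its match lies past that first base and not upstream of it. Its first 7 letters, TGACGTC, sought on both strands and contained in the longer motif, are in 3.45% of windows and occurred in DBH as well, starting 181 bases before the start. The matches are printed to show where these letters stand in the 3 genes, and the capitals mark the match. As given further on, DBH and CHGA were called higher in the shMETTL14 inputs and SLC18A2 was not called. DDC, which was called higher, and MAOA, which was not called, hold no match in their windows. A match describes the sequence and was not tested for binding.
DBH, chr9:133636171-133636199, plus strand: actcccactgaTGACGTCcatgtgtcatt
SLC18A2, chr10:117241055-117241084, plus strand: ccctccggccgTGACGTCAgagccggacgg
CHGA, chr14:92923085-92923114, plus strand: ggcggcaccgcTGACGTCAtttccggggtc

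Levels of the 9 genes were compared with each other per length, as CPM per kilobase of exon. In the sh-NC inputs the chromogranins and DDC stood highest, with means over 2 cultures of 98.3 (CHGA), 78.9 (CHGB) and 62.9 (DDC) CPM per kilobase. TH followed at 10.5, SLC6A2 at 4.28, MAOA at 2.62, SLC18A1 at 1.44, SLC18A2 at 1.22 and DBH at 0.851 CPM per kilobase. No neighbours in this order overlapped between their 2 cultures. The place of SLC18A2 is less certain, because it shares 56.39% of its exonic bases with other genes and was divided by its full length. CHGA was above 98.4% of the genes tested in its level per length, TH above 79.9% and DBH above 29.1%, so that the last enzyme of noradrenaline synthesis was a low transcript beside the enzymes before it.

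**Figure D1:**
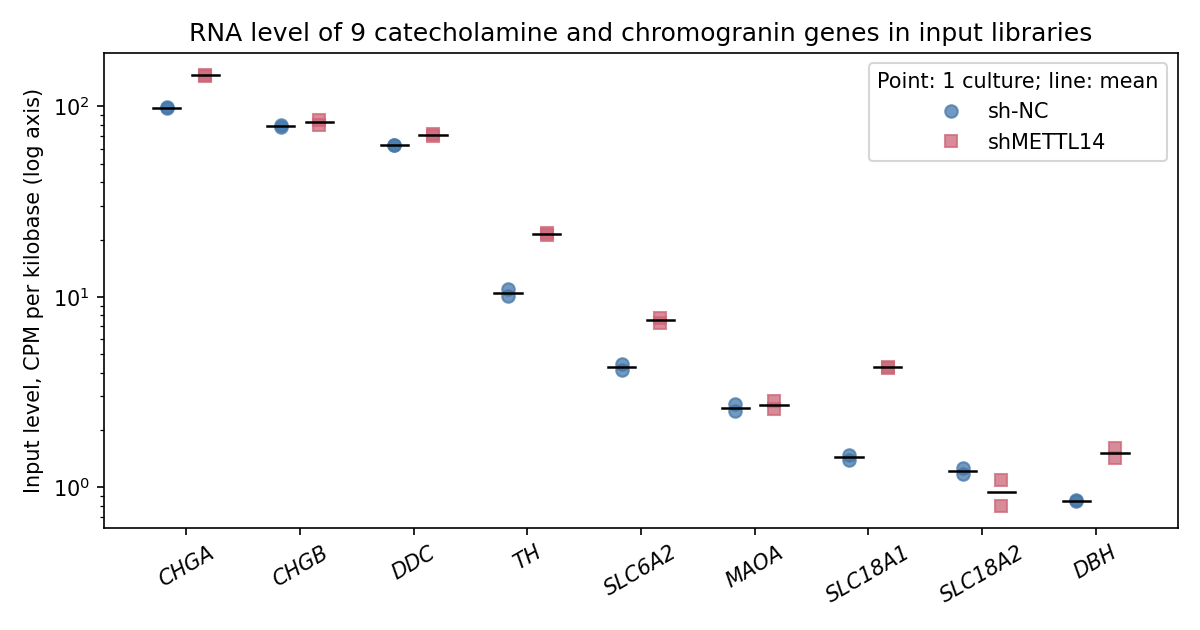
Level per length of the 9 genes in the 4 input libraries, in CPM per kilobase on a log axis, with a point for each culture and a line for the mean of 2 cultures. SLC18A1 moved from 1.44 in sh-NC to 4.27 in shMETTL14 and passed MAOA, and DBH moved from 0.851 to 1.52 and passed SLC18A2. The level of SLC18A2 is less certain, as it shares 56.39% of its exonic bases with other genes.

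In the shMETTL14 inputs the order changed in 2 places. SLC18A1, at 4.27 CPM per kilobase, stood above MAOA at 2.70, and DBH, at 1.52, stood above SLC18A2 at 0.941. The latter change of order is less certain, because of the exonic bases that SLC18A2 shares with other genes. The remaining genes kept their places, with CHGA at 146, CHGB at 82.5, DDC at 70.8, TH at 21.5 and SLC6A2 at 7.53 CPM per kilobase, again with no overlap between neighbours.

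The comparison of the input libraries asked how the RNA of these genes differed with METTL14 knocked down. RNA of 6 of the 9 genes was higher in shMETTL14: all 3 enzymes of the path from tyrosine to noradrenaline, VMAT1, the noradrenaline transporter and chromogranin A. None was called lower, and VMAT2, MAOA and chromogranin B were not called. Over all 22245 genes tested, 11.7% were called higher and 12.3% lower. DESeq2 gave the same counts of 6 and 0, and at an unadjusted edgeR p under 0.05 the counts were 7 and 1. The median log2 change of the 9 genes was 0.58, beside 0.0024 for all genes tested.

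Among the synthesis enzymes, TH stood at 32.7 and 35.7 CPM in the inputs of sh-NC and at 68.9 and 70.2 CPM in the inputs of shMETTL14. The arms lay far apart and each pair of cultures close together. This was a log2 change of 1.03 ± 0.0546 (SE), or 2.05-fold, with an edgeR adjusted p of 7.94e-13, and 98.5% of tested genes had a lower change. DDC, already abundant, stood at 197.2 and 197.4 CPM in sh-NC, against 224 and 220 CPM in shMETTL14. The groups did not overlap, but the rise was small, 1.13-fold (log2 0.18 ± 0.0352, edgeR adjusted p = 0.000493), and without shMETTL14 culture 2 the adjusted p was 0.0524. Its antisense gene DDC-AS1, which shares 114 exonic bases, was not called (log2 0.25, edgeR adjusted p = 0.0704). DBH had 85 and 84 counts in the inputs of sh-NC and 189 and 164 in the inputs of shMETTL14, or 2.38 and 2.33 CPM against 4.46 and 3.92 CPM. Both shMETTL14 values were above both sh-NC values, and the log2 change was 0.84 ± 0.176 (1.79-fold, edgeR adjusted p = 0.000868). DBH shares 118 exonic bases with DBH-AS1, an antisense gene with 951 counts over the 8 libraries beside 1013 of DBH. DBH-AS1 was higher as well (log2 0.68, edgeR adjusted p = 0.0143); at its mean density the shared bases would hold 52.5 of its counts.

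The levels of the enzymes relative to each other were read within each culture, as ratios of levels per length. TH over DDC was 0.16 and 0.175 in the inputs of sh-NC and 0.297 and 0.309 in the inputs of shMETTL14. DDC over DBH was 73.1 and 74.7 in sh-NC, against 44.3 and 49.4. For TH over DBH the values were 11.7 and 13.1 in sh-NC, against 13.2 and 15.3 in shMETTL14, with little separation between the arms. For a single ratio, the exact permutation test (two-sided) over 2 and 2 cultures cannot go below p = 0.333.

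Of the transporters, SLC18A1 (VMAT1; chr8:20144855-20183206, minus strand) changed most. It had 207 and 196 counts in the inputs of sh-NC and 703 and 701 in the inputs of shMETTL14, or 5.79 and 5.43 CPM against 16.6 and 16.8 CPM. The cultures of an arm nearly coincided, and the change of 2.98-fold (log2 1.58 ± 0.103, edgeR adjusted p = 3.67e-11) exceeded that of 99.7% of tested genes. SLC6A2, the noradrenaline transporter, stood at 22.5 and 24.3 CPM in sh-NC, against 40.0 and 42.3 CPM in shMETTL14, a 1.77-fold rise without overlap (log2 0.82 ± 0.0647, edgeR adjusted p = 9.27e-10). It shares 977 exonic bases with RP11-481F24.3 on the same strand, whose counts moved alike (log2 0.88, edgeR adjusted p = 2.16e-06).

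SLC18A2 (VMAT2) had 174 and 188 counts in the inputs of sh-NC and 190 and 137 in the inputs of shMETTL14, or 4.87 and 5.21 CPM against 4.48 and 3.28 CPM. Both shMETTL14 values lay below the sh-NC values, by unequal amounts, and the log2 change of -0.37 ± 0.161 was not called (edgeR adjusted p = 0.104; 95% interval of the log2 change -0.70 to -0.04, not adjusted). Without shMETTL14 culture 1 it was -0.61 with an adjusted p of 0.0489, and without culture 2 it was -0.17. PDZD8, on the opposite strand, covers 2157 of the exonic bases of SLC18A2, and at the mean density of PDZD8 these bases would hold 5090 counts, beside 1095 listed for SLC18A2 in all 8 libraries. PDZD8 itself was lower in shMETTL14 (log2 -0.54, edgeR adjusted p = 1.11e-08), so that the value of SLC18A2 is uncertain. VMAT1 over VMAT2, per length, was 1.26 and 1.10 in the inputs of sh-NC and 3.90 and 5.40 in the inputs of shMETTL14. This ratio carries the same uncertainty.

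MAOA, the degrading enzyme, stood at 15.1 and 13.9 CPM in sh-NC, against 14.3 and 15.6 CPM in shMETTL14. These values overlapped, and the log2 change of 0.05 ± 0.089 was not called (edgeR adjusted p = 0.744); its 95% interval ran from -0.13 to 0.24.

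The chromogranins differed in their calls. CHGA stood at 303 and 307 CPM in the inputs of sh-NC and at 450.1 and 456 CPM in the inputs of shMETTL14, a rise of 1.49-fold (log2 0.58 ± 0.0323, edgeR adjusted p = 2.13e-12) with the arms well separated. CHGB stood at 362 and 354 CPM in sh-NC, against 364 and 384 CPM in shMETTL14. The shMETTL14 values were the higher ones by a narrow margin, and the log2 change of 0.07 ± 0.034 was not called (edgeR adjusted p = 0.146; 95% interval 0.00 to 0.14). CHGA over CHGB, per length, was 1.22 and 1.27 in sh-NC, against 1.81 and 1.74 in shMETTL14.

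The genes around these 9 were followed through 59 others in 7 lists, of which 43 could be tested in the inputs. Of these, 12 were called higher, 7 lower and 24 were not called, beside 11.7% higher and 12.3% lower over all genes tested. Their median log2 change was 0.01. Sympathetic transcription factors, which switch on noradrenergic genes, had 6 of 9 called higher and none lower, and 9 of 9 were tested. GATA2 rose most among them (log2 0.77, edgeR adjusted p = 6.4e-14), with ISL1 (0.45), TFAP2B (0.44), GATA3 (0.28) and HAND2 (0.14). PHOX2A (log2 -0.06, edgeR adjusted p = 0.399), a homeodomain factor that acts on the DBH and TH promoters, was not called.

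Other granins and enzymes that process granule peptides went both ways, with 4 of 11 called higher and 4 lower. CYB561, the granule cytochrome that supplies electrons for DBH, rose (log2 0.38, edgeR adjusted p = 1e-04), as did PCSK1N (0.35), SCG5 (0.32) and SCG2 (0.14). PCSK1, a prohormone convertase, fell (log2 -0.96, edgeR adjusted p = 5e-06), together with SCG3 (-0.42), which binds chromogranin A, CPE (-0.32) and VGF (-0.13). Genes that serve the cofactor and the breakdown of catecholamines were mostly not called. Of 6 tetrahydrobiopterin genes, which make and recycle the cofactor of TH, PTS was called lower (log2 -0.25, edgeR adjusted p = 0.0161) and none higher, and GCH1, the entry enzyme, was at 0.02. Of 5 tested genes of catecholamine and aldehyde metabolism, ALDH2 was lower (log2 -0.22, edgeR adjusted p = 0.00623) and none was higher.

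MAOB had 0 counts in all 8 libraries, and PNMT, which turns noradrenaline into adrenaline, had at most 7 counts in any input library and was not tested. Neither of 2 tested genes among other monoamine transporters was called. Of 14 catecholamine receptors 7 were tested, and ADRA2A (log2 0.62, edgeR adjusted p = 3.29e-05) and DRD2 (log2 0.51, adjusted p = 0.0412) rose. Among 3 tested cholinergic and serotonin genes, SLC18A3, the vesicular acetylcholine transporter, fell (log2 -0.40, edgeR adjusted p = 0.0122).

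**Figure D2:**
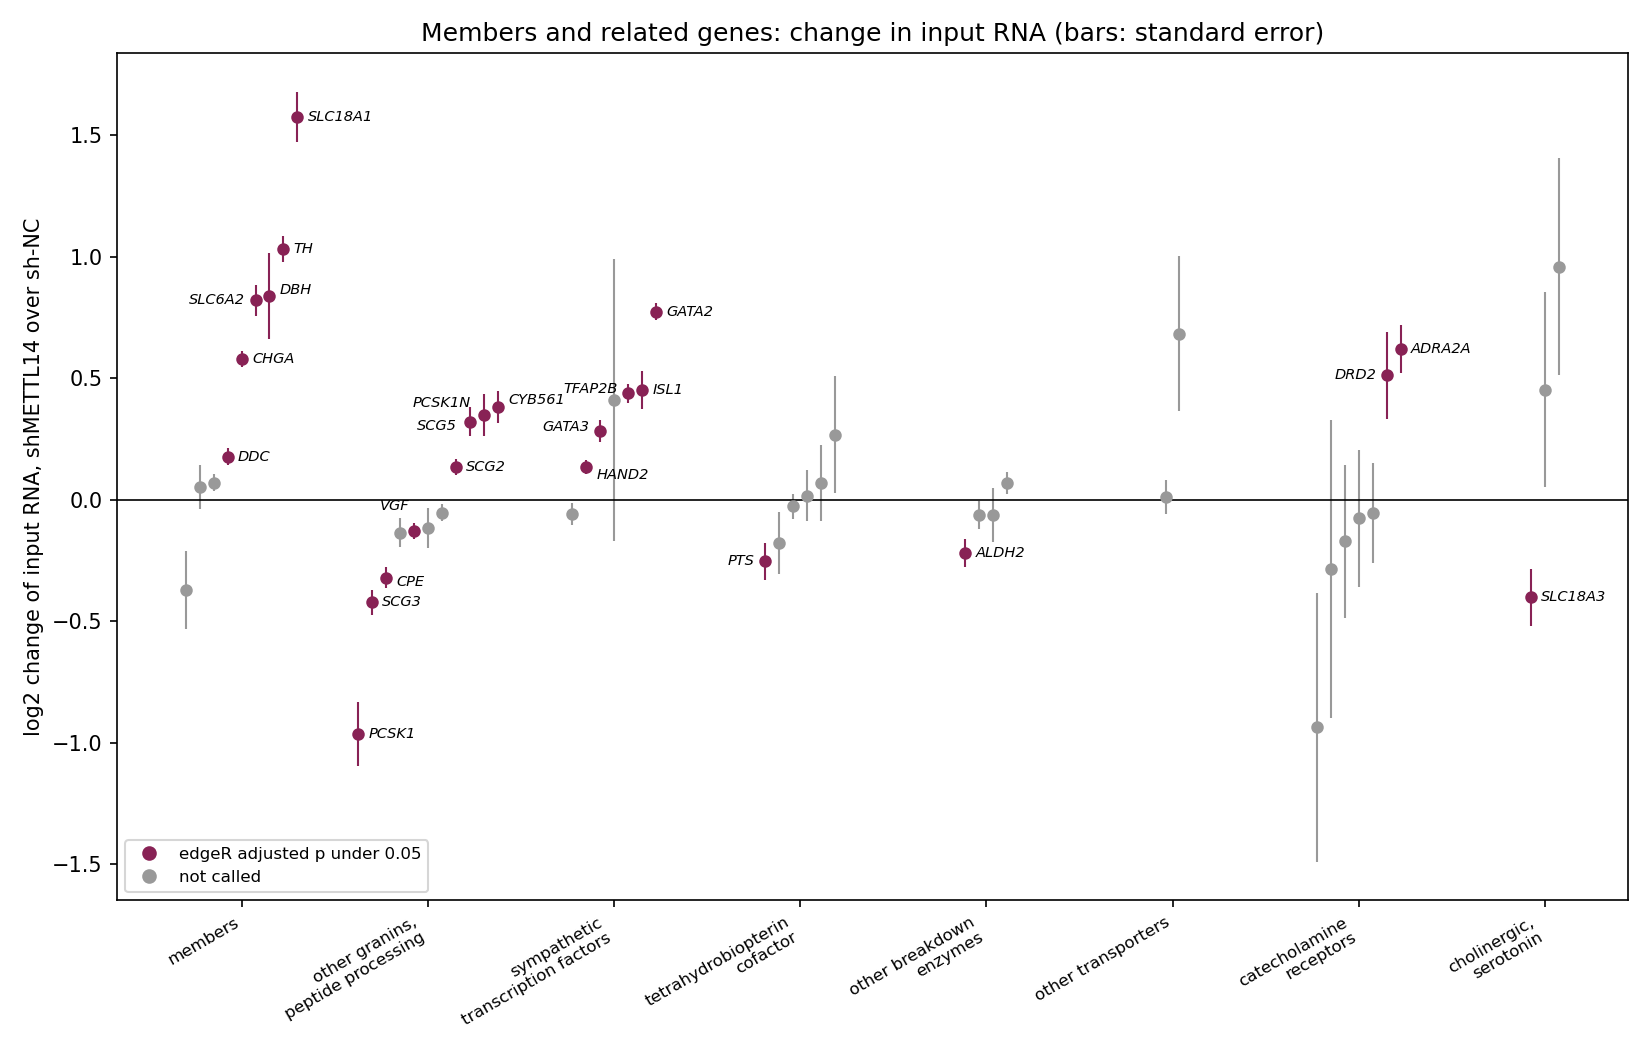
log2 change of input RNA, shMETTL14 over sh-NC, of the 9 members and of related genes by list, with 1 point for each tested gene that is reported and bars of 1 standard error; dark points passed edgeR's adjusted p threshold and carry names. The 6 called members lie between 0.18 (DDC) and 1.58 (SLC18A1), and the granin and peptide processing list lies on both sides of 0.

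IP over input tells how a gene's share of the pulled-down RNA compares with its share of the input, and the scaling removes any loss of m6A that all genes share equally. In sh-NC, the IP level was above the input level for 2 of the 9 genes, CHGA and CHGB, below it for 6, and not called for DBH. Over 22953 genes tested, 29.1% were called higher and 29.8% lower. In shMETTL14 the same 2 and 6 genes were called, beside 28.9% and 29.1% of all genes. With DESeq2 the counts were 2 and 6 for sh-NC, then 2 and 4 for shMETTL14. The median log2 ratio of the 9 genes was -0.40 in sh-NC and -0.26 in shMETTL14, beside -0.01 for all genes tested in both arms.

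CHGB had the highest IP over input of the 9, with ratios of 1.87 and 2.04 in cultures of sh-NC and 1.88 and 1.78 in cultures of shMETTL14. Its log2 ratio was 0.97 in sh-NC (edgeR adjusted p = 1.33e-27) and 0.87 in shMETTL14 (adjusted p = 7.98e-26), above 93.4% and 91.4% of tested genes. CHGA followed with 1.56 and 1.59 in sh-NC, against 1.51 and 1.54 in shMETTL14, at log2 0.66 (edgeR adjusted p = 1.45e-21) and 0.61 (adjusted p = 1.75e-20). The granin list around them was mixed, with 5 of 11 tested genes above and 6 below the input in sh-NC.

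TH lay at the other end. Its ratios were 0.343 and 0.294 in sh-NC, against 0.319 and 0.331 in shMETTL14. In both arms its share of the IP was thus about as far below its share of the input. The log2 ratio was -1.65 ± 0.0734 in sh-NC (edgeR adjusted p = 2.41e-25) and -1.62 ± 0.0633 in shMETTL14 (adjusted p = 1.98e-27), and 4.1% and 4% of tested genes were lower. DDC was below input by less, with 0.856 and 0.799 in sh-NC, against 0.849 and 0.829 in shMETTL14 (log2 -0.27 and -0.25, edgeR adjusted p of 8.36e-08 and 3.44e-07). DBH had 1.21 and 0.889 in sh-NC, on both sides of 1, and 1.04 and 1.16 in shMETTL14, and was called in neither arm (edgeR adjusted p of 0.689 and 0.534).

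The 3 transporters had IP below input by similar amounts. SLC18A1 had ratios of 0.611 and 0.683 in sh-NC, against 0.632 and 0.740 in shMETTL14 (log2 -0.63 and -0.54). SLC6A2 had 0.667 and 0.592 in sh-NC, against 0.648 and 0.679 in shMETTL14 (log2 -0.67 and -0.59), and SLC18A2 had 0.628 and 0.637 in sh-NC, against 0.702 and 0.621 in shMETTL14 (log2 -0.67 and -0.59). The largest edgeR adjusted p among these 6 log2 ratios was that of SLC18A2 in shMETTL14, 0.00718, and it was 0.0662 with DESeq2 and 0.0766 without shMETTL14 culture 2. PDZD8, which covers much of SLC18A2, had a ratio above 1 in both arms, at 1.36-fold and 1.29-fold in the fit. MAOA had 0.714 and 0.808 in sh-NC, against 0.814 and 0.848 in shMETTL14 (log2 -0.40 and -0.26, edgeR adjusted p of 0.000408 and 0.0168); with DESeq2 the latter was 0.0943.

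**Figure D3:**
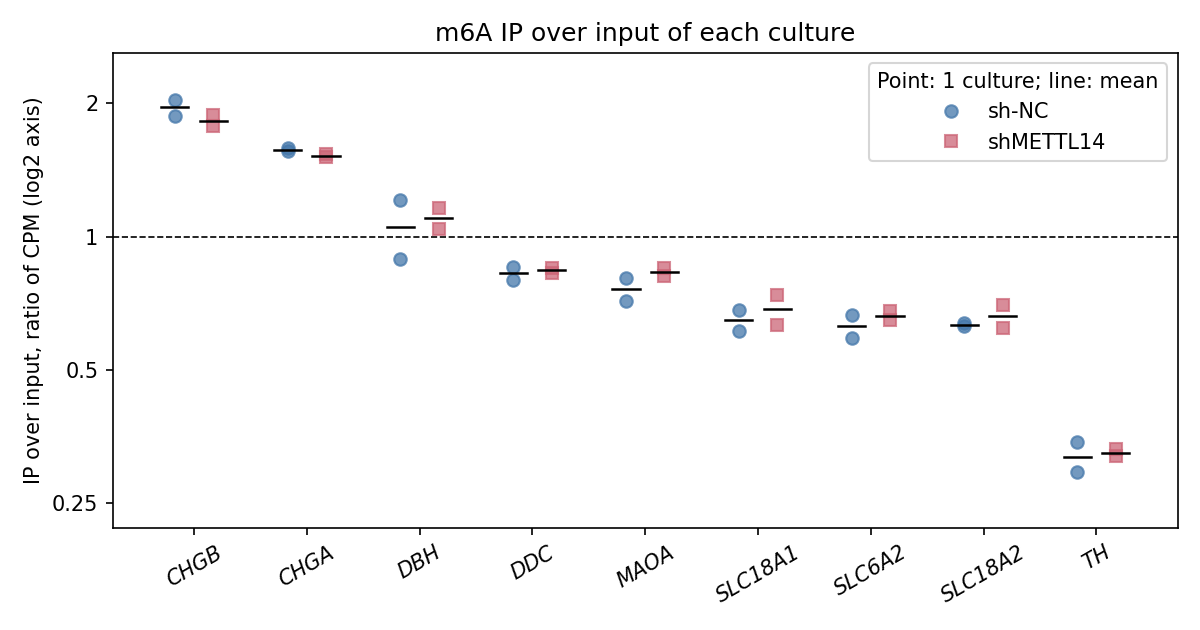
Ratio of IP to input CPM of each culture on a log2 axis for the 9 genes, with a line for the mean of 2 cultures; the dashed line marks equal shares. CHGB (1.78 to 2.04) and CHGA (1.51 to 1.59) lie above 1 in all 4 cultures, TH lies between 0.294 and 0.343, and the arms overlap or lie close for every gene.

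Whether IP over input differed between shMETTL14 and sh-NC was tested as an interaction in the model of 8 libraries. None of the 9 genes was called in either direction, with 0 at an unadjusted edgeR p under 0.05 and 0 by DESeq2. Over all 22953 genes tested, 0% were called higher and 0.00436% lower, which is 1 gene. The counts over all genes moved when a control culture was left out, to 6 higher and 116 lower without sh-NC culture 1 and to 9 and 7 without sh-NC culture 2, and they were 1 and 12 with no filter on low counts; none of the 9 genes was called in these fits. The log2 changes ran from -0.10 for CHGB to 0.14 for MAOA, with a median of 0.03 beside 0.00 for all genes tested. With a culture left out CHGB ran from -0.18 to -0.03 and MAOA from 0.03 to 0.22, the outer values of both being those without a sh-NC culture. The edgeR adjusted p ran from 0.807 to 0.997. For the abundant genes the 95% intervals were narrow: -0.20 to 0.01 for CHGB, -0.15 to 0.05 for CHGA, -0.10 to 0.13 for DDC and -0.17 to 0.23 for TH. They were wider for SLC6A2 (-0.13 to 0.29), MAOA (-0.14 to 0.41) and SLC18A1 (-0.25 to 0.44), and widest for SLC18A2 (-0.46 to 0.61) and DBH (-0.50 to 0.56). The intervals are not adjusted for the number of genes tested, and for each gene a change within its interval remains compatible with the data. The size of change that could have been called with 2 cultures per arm was not determined. Of the 45 related genes that could be tested, 0 were called.

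The IP libraries taken alone changed in step with the inputs. TH was at 11.2 and 10.5 CPM in the sh-NC IPs and at 22.01 and 23.3 CPM in the shMETTL14 IPs, a log2 change of 1.06 (edgeR adjusted p = 1.45e-12) beside 1.03 in the inputs. SLC18A1 was at 3.54 and 3.71 CPM in the sh-NC IPs and at 10.5 and 12.4 CPM in the shMETTL14 IPs (log2 1.66, edgeR adjusted p = 5.69e-13, beside 1.58). SLC6A2 changed by 0.89, DBH by 0.86, CHGA by 0.52 and DDC by 0.19 in the IPs, all called higher by edgeR, beside 0.82, 0.84, 0.58 and 0.18 in the inputs. MAOA (0.18, edgeR adjusted p = 0.226), CHGB (-0.03, adjusted p = 0.636) and SLC18A2 (-0.30, adjusted p = 0.348) were not called in the IPs. An IP level depends on a gene's RNA level as well as on its m6A.

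**Figure D4:**
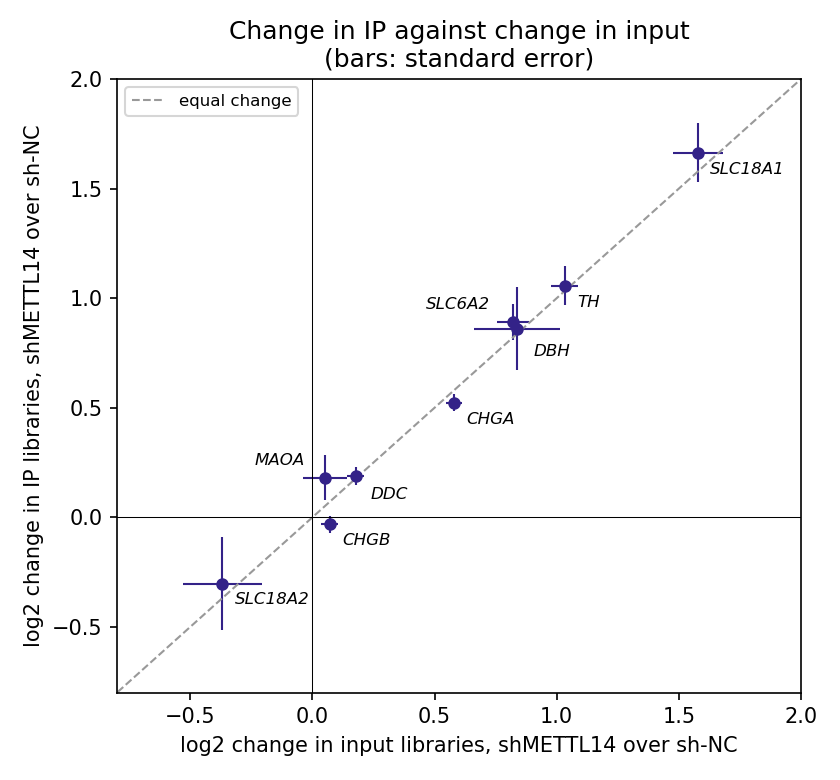
log2 change, shMETTL14 over sh-NC, of the 9 genes in the IP libraries alone against that in the input libraries, with bars of 1 standard error on both axes; the dashed line marks equal change. SLC18A1 (1.58 in input, 1.66 in IP) and TH (1.03 and 1.06) lie at the upper end, and the distance from the line is between -0.10 (CHGB) and 0.14 (MAOA) in the joint model.

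Patterns over the 8 libraries were compared by Pearson's r of log2 CPM among 16441 genes with a mean of at least 50 counts. These 8 points fall into 4 groups, so that r mostly reflects the 4 group means, and it is given as a description. The genes most like TH were KLHL7 (r = 0.999) and L1CAM (0.998), and those most like SLC18A1 were NBEA (0.998), BCL2L2 (0.997) and DCN (0.994). DDC was most like SYN2, ENO2 and MAP2K5 (0.992 each), SLC6A2 most like REC8, KLC2 and KCTD10 (0.994 to 0.997), and DBH most like NCKAP5L, GLUD1P3 and AMOTL2 (0.982 to 0.988). Within the 9 genes, TH followed DDC (0.982), SLC6A2 (0.932) and MAOA (0.893), of which MAOA was not called in the inputs. TH ran against CHGB (-0.832), whose IP level was above its input level.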

How the data were processed

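The authors deposited raw counts per gene for 4 IP and 4 input libraries, without normalization. Per the labels, libraries were stranded, with paired reads and molecular identifiers; the submitters' processing notes name Trimmomatic 0.36 and GRCh38. The aligner, counter, strand setting, annotation and removal of duplicates are not given in the sources used here. Between 79.7% and 81.3% of counts from 1 to 20 were even, as when both mates of a pair are counted, so that counts are not independent molecules.

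Counts were tested in R 4.3.3 with edgeR 4.0.16 (filterByExpr, TMM factors, glmQLFit and glmQLFTest, Benjamini-Hochberg over all genes tested, threshold 0.05). RNA levels used the 4 inputs; IP against input and its change between arms were contrasts of 4 group means fitted over 8 libraries. Intervals are 95% intervals of the fit for a single gene. The alternatives tried were RLE factors, scaling by library size only, DESeq2 1.42.0, other filters, a replicate block, other sets of libraries and leaving out each culture; halved counts, and edgeR's test with a culture left out, were added after seeing the data. Fits were tested on simulated data.

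Members, related lists, markers and tests were chosen with earlier results of these data known. Genes named are the members, METTL14, cell type markers, and genes of the related lists that passed the threshold or define a list. Genes among the 3 most like a member are named for TH, DDC, DBH, SLC18A1 and SLC6A2 only. Genes overlapping a member were named after their values were seen. Replicates differed by more than independent counts would in every group (chi-square per gene 2.43 to 3.99). Counting both mates of a pair would raise this value by itself, so its excess over sampling noise is uncertain. IP and input of a culture are paired by the protocol, yet their deviations correlated by 0.004 and 5.7e-05 over 22953 genes; inputs with the same number in both arms are tied by nothing else (-0.012). Some genes of the related lists, and a gene most like TH, are counted but not reported here by name.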

Additional observations from a re-analysis of the deposited data

How the results depend on the processing

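The replicate block was the culture number in the comparison of inputs, and each single culture, pairing its IP and input, in the comparisons with IP. With this block, no member changed its call in any comparison. Over all genes, 2744 were then higher and 2849 lower in the shMETTL14 inputs, beside 2607 and 2732. The members lower in input numbered 0 to 1 when a culture was left out, the 1 being SLC18A2 (-0.61 without shMETTL14 replicate 1). In the IP libraries alone, 6 members were higher. The values there of SLC18A2 (-0.30), CHGA (0.52) and METTL14 (-1.70) had the opposite sign to the change of IP over input, but they measure another quantity. An IP level also depends on the RNA level, so this difference in sign does not tell how steady the change of IP over input is. DBH in sh-NC had an IP against input of -0.0261 with library size only and from -0.16 to 0.28 with a culture left out. The input change of MAOA ran from -0.0168 to 0.115 with a culture left out, and MAOA lost its IP against input call in sh-NC without replicate 1 (edgeR adjusted p = 0.0902), and in shMETTL14 with DESeq2 and without either culture. SLC18A2 lost its IP against input call in shMETTL14 with DESeq2 (adjusted p = 0.0662) and without replicate 2 (edgeR adjusted p = 0.0766). The change of IP over input, with a culture left out, ran from -0.075 to 0.13 for TH, -0.0287 to 0.0527 for DDC, -0.15 to 0.28 for DBH, -0.0282 to 0.20 for SLC18A1, -0.0231 to 0.16 for SLC18A2, -0.0048 to 0.15 for SLC6A2, -0.18 to -0.03 for CHGB, -0.08 to -0.04 for CHGA, 0.03 to 0.22 for MAOA and -0.0026 to 0.19 for METTL14; none was called. Leaving out a culture leaves 1 sample in an arm, assumed to vary like the others. Over all genes, the input counts were 1082 higher and 1072 lower with no filter on low counts, 1580 and 1720 with DESeq2, and 656 and 925 without shMETTL14 replicate 2. Library size only moved the median of all genes to -0.14 in sh-NC and -0.13 in shMETTL14 for IP against input, with 5358 higher and 8250 lower calls in sh-NC and 5322 and 8080 in shMETTL14, and kept every member's call. Over the fits that kept all cultures, the highest adjusted p of the input change (edgeR or DESeq2) was 0.00457 for TH and 0.0041 for SLC18A1. It was 0.008 for SLC6A2, 0.00266 for CHGA, 0.0237 for DDC and 0.0358 for DBH, so these 6 members stayed called. Where a value changed, the cause was not tested.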
